A study of Xenopus laevis with 16 samples.

Results

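The genes described here were picked, by a rule on measured values, as late in their rise with Nodal5. They were chosen to lie close to the control at 2.5 h and to be clearly higher with Nodal5 at 7.5 h. With GATA4 they were required to stay within a set window of the control over the same hours. They number 184 gene models of 30841 with enough counts, and of 54142 in the table. The explants were animal caps, cut from the top of the Xenopus laevis blastula, whose cells are pluripotent and form epidermis when left alone. They came from embryos injected with mRNA for Nodal5, for GATA4-GR, or for GATA4-GR together with Dkk-1, and the control explants were uninjected. In GATA4-GR the transcription factor carries a glucocorticoid receptor domain that keeps it inactive until dexamethasone (DEX) is added. Dkk-1 is a secreted Wnt antagonist. Hours were counted from the cutting of the explants and the addition of DEX. The 16 libraries hold 1 library of pooled explants for each of the 4 treatments at 4 hours (2.5, 5 and 7.5 h, and then 24 h), so that no difference at a single hour is checked by replicates. The Nodal5 mRNA was present from injection, before excision, so the hours do not count from the start of Nodal5 activity as they do for the hormone-inducible GATA4-GR. Low-dose activin explants were not analysed here.

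Nodal ligands are secreted proteins of the TGF-β family. They bind activin receptors, and the receptors phosphorylate Smad2 and Smad3, which enter the nucleus with Smad4 and act on genes together with DNA-binding partners such as FoxH1. In the Xenopus embryo this signal is the main inducer of mesoderm and endoderm, at low and high doses in different proportions. Direct targets respond without new protein synthesis, whereas later genes generally need transcription factors made in the first wave. None of the gene model identifiers could be paired with a gene name (0 of 54142 found among the 44456 genes of the RefSeq table for this species). The members are therefore described by their measured behaviour, with 4 shown by identifier, and no role, cell type marker or sequence is given for any of them. For the same reason the animal cap identity of the explants and the injected transcripts could not be checked.

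The members were chosen from measured values. Levels are log2 of the TMM-scaled CPM, the count relative to the size of its library, with 1 CPM added, and a difference is the level in a treatment minus the level in the control library of the same hour. A member had a Nodal5 difference between -0.5 and 0.5 at 2.5 h and of at least 1.2 at 7.5 h, while both GATA4 treatments lay between -0.5 and 0.75 at 2.5, 5 and 7.5 h. Because 1 CPM is added, a member far below 1 CPM can lie inside these windows with a large fold change. A place inside the GATA4 window therefore does not show that GATA4 had no effect. In the same way, a place inside the Nodal5 window at 2.5 h does not show that no response had begun. Of the 30841 gene models with a row total of at least 50, 858 reached a Nodal5 difference of 1.2 at 7.5 h, which is 2.78%. Among these, 476 were outside the window at 2.5 h, 359 of them because they were already more than 0.5 above the control. A further 198 were left out because a GATA4 treatment moved outside its window, which leaves the 184 members. The 3 members nearest the threshold had Nodal5 differences of 1.201, 1.202 and 1.21 at 7.5 h, and the 3 gene models just below it had 1.183, 1.18 and 1.177. The Nodal5 values at 2.5 and 7.5 h and the GATA4 values up to 7.5 h are given below as a description, since the rule used them. The 24 h libraries were not used by the rule.

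Total counts ranged from 11339829 to 23310320 per library. All 4 libraries of the 5 h time point are marked as sequenced again in the library names, so this batch coincides with one hour and not with a treatment. TMM factors were 0.71 to 0.914 at 24 h, lowest in the control library, and 1.02 to 1.1 at the earlier hours. With median-of-ratios size factors in place of TMM, 182 of the 184 members were chosen again.

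Most members were absent or low in the early explants without Nodal5. Up to 5 h in these explants, 122 members averaged under 1 CPM and 62 averaged 1 CPM or more. Of all 30841 gene models, 9988 averaged under 1 CPM. The row total included the Nodal5 counts, so a member could pass it while low in the other libraries. In the first control library 23 members were at 10 CPM or more. With Nodal5 their median level over the hours was 0.405, 1.49, 6.02 and 22.4 CPM, in the order of the hours. The GATA4-GR medians were 0.325, 0.4, 0.512 and 2.34 CPM, and those of GATA4-GR+Dkk-1 were 0.34, 0.457, 0.407 and 3.04 CPM. In the control libraries the medians were 0.393, 0.354, 0.356 and 1.11 CPM. The rule asks for the Nodal5 rise at 7.5 h and for GATA4 levels near the control up to that hour, so these parts are built in. At 5 h the Nodal5 median was already above the others, and at 24 h every median was higher than at 7.5 h. At 7.5 h the median count of a member was 69.5 with Nodal5 and 7.01 in the control, and 23 members had no count in that control library. The lowest Nodal5 count of a member at 7.5 h was 15. The threshold of the rule at that hour cannot be reached without counts in the Nodal5 library, so detection there is built in as well. At least 10 CPM was reached by 64 members with Nodal5 and by 22 in the control at 7.5 h, and by 117 with Nodal5 and 43 in the control at 24 h.

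**Figure D1:**
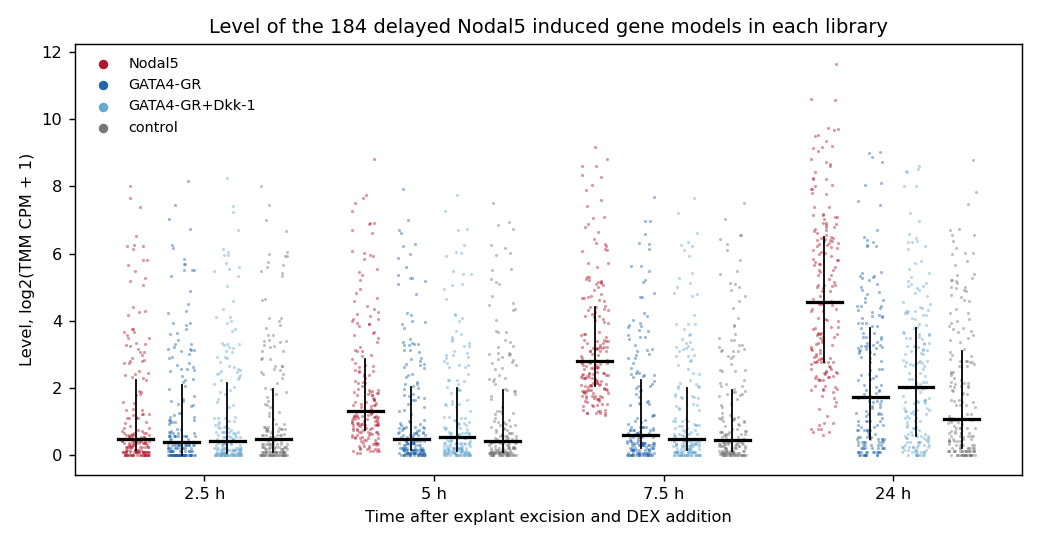
Level of each of the 184 members, as log2(TMM CPM + 1), in the 16 libraries, grouped by hour and coloured by treatment. Each point is one gene model, the thick bar is the median and the thin line runs between the quartiles. The Nodal5 median is 0.405 CPM at 2.5 h and 22.4 CPM at 24 h. The GATA4 treatments and the control overlap one another up to 7.5 h because the rule asks for it.

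Together the members made up 0.171% of the counts of the Nodal5 library at 2.5 h, 0.293% and 0.608% at 5 and 7.5 h, and 1.87% at the last hour. In the control library the shares were 0.162%, 0.147%, 0.145% and 0.184%. Their summed CPM was 1.09 times that of the control with Nodal5 at 2.5 h, 2.1 times at 5 h, 4.48 times at 7.5 h and, at the last hour, 8.87 times. A few abundant members weigh on these sums, since the 10 highest held 49.8% of the summed CPM of the Nodal5 library at 24 h, and without them the ratio at 24 h was 5.71. In GATA4-GR explants the summed CPM was 1.06 times that of the control at 7.5 h and 1.73 times at 24 h. In GATA4-GR+Dkk-1 explants it was 0.994 times at 7.5 h and 1.54 times at 24 h. In whole explants, more cells that express a gene and more RNA per cell cannot be told apart.

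The increase with Nodal5 had begun at 5 h for many members. The rule did not set a Nodal5 value at 5 h, but this is the same contrast at a neighbouring hour, so the values are a description with no test. The median Nodal5 difference at 5 h was 0.66, with quartiles of 0.33 and 1.15 and a range from -0.30 to 3.59, against a median of 0.04 over all 30841 gene models. A difference of at least 1 was reached by 55 of the 184 members, which is 29.9%, and by 2.12% of all gene models. The difference lay between 0.5 and 1 for 61 members and under 0.5 for 68. It was above 0 for 173 members. The share of all gene models above 0 was not counted, and their median was 0.04. For 178 members the difference was higher at 7.5 h than at 5 h, which the 7.5 h threshold favours. The median at 7.5 h was 1.86, with 81 members at 2 or more, 25 at 3 or more and a highest value of 6.65.

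**Figure D2:**
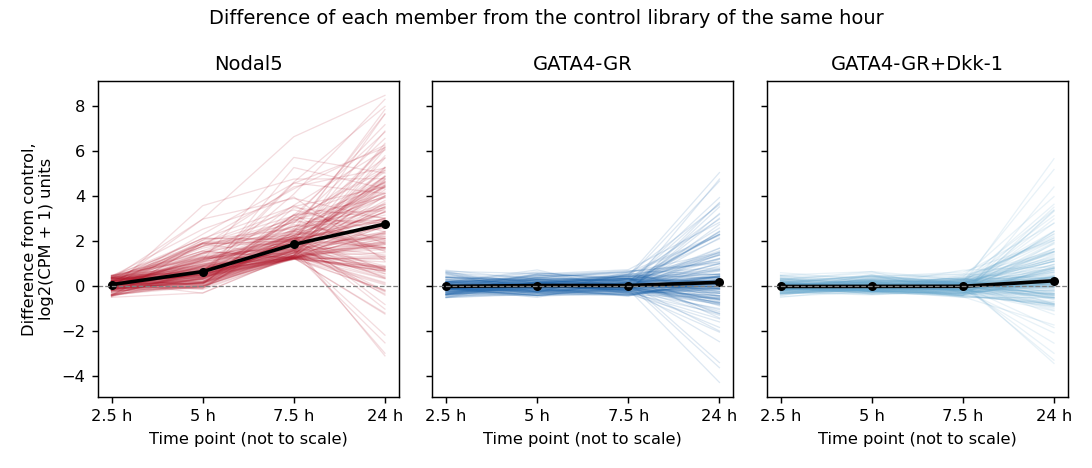
Difference of each member from the control library of the same hour, in log2(CPM + 1) units, for Nodal5, GATA4-GR and GATA4-GR+Dkk-1 at the 4 time points. Each thin line is one of 184 gene models and the black line is the median. The Nodal5 medians are 0.08, 0.66, 1.86 and 2.77, and the GATA4 lines stay near 0 to 7.5 h because the rule asks for it, then spread at 24 h.

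At 24 h, hours after the values that chose them, most members were still higher with Nodal5, and by more than before. The median Nodal5 difference was 2.77, with quartiles of 1.32 and 4.42, whereas the median over all gene models was 0.00 at this hour. A difference of at least 1 was found for 144 members, which is 78.3%. It was found for 10.8% of all gene models and 8.73% of those inside the same GATA4 windows. Neither background was chosen for a high Nodal5 level at 7.5 h. Among gene models outside the members with the same 7.5 h difference, described by class below, the shares ran from 51.7% to 85.2%. The difference was at least 3 for 83 members and at least 5 for 28. It lay within 1 unit of the control for 33 members, and it was at least 1 unit lower for 7, which is 3.8%, against 13.6% of all gene models. For 119 of the 184 members the difference at 24 h was larger than that at 7.5 h. Shares over all gene models were not counted for the limits of 3 and 5, the band within 1 unit or this increase. The Nodal5 differences of all gene models also spread more at 24 h, with quartiles of -0.46 and 0.41, against -0.21 and 0.17 at 7.5 h. With median-of-ratios size factors the rule gave 188 members, of which 78.7% were at least 1 unit higher at 24 h. These counts set 1 library against 1, and how much explant batches vary at 24 h was not measured. An edgeR quasi-likelihood call at 24 h (adjusted p under 0.1) can only take its error from the earlier hours, which the rule used, so it is a description and no independent test. It marked 140 members (76.1%) as higher with Nodal5, against 18.2% of all gene models, and 7 as lower, against 20.6%.

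The 24 h Nodal5 library held the highest level of all 16 libraries for 125 members, or 67.9%, against 14.5% of all gene models. The 7.5 h Nodal5 library was the highest for 38 members (20.7%, against 4.22% of all gene models), a value the rule bears on, and that of 5 h for 1 (0.543%, against 2.8%). Another 24 h library was the highest for the remaining 20 (10.9%, against 37.2%), which were GATA4-GR for 11, GATA4-GR+Dkk-1 for 5 and the control for 4. Within the Nodal5 libraries, the level at 24 h was at least 1 unit above that at 7.5 h for 99 members (53.8%, against 16.2% of all gene models) and at least 1 unit below it for 13 (7.07%, against 15.8%). A lower Nodal5 level at 24 h than at 7.5 h, by any amount, was found for 46 members, against 47.5% of all gene models. Most members thus had their highest measured level at the last hour sampled.

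The members fell into 3 classes by their Nodal5 difference at 5 h, and the class with the smallest difference then had the highest median level at 24 h. The 68 members with a difference under 0.5 at 5 h had a median difference of 1.61 at 7.5 h and 3.17 at 24 h, and their median Nodal5 level at 24 h was 57.5 CPM. The 55 members with a difference of at least 1 at 5 h had medians of 2.25 at 7.5 h and 2.43 at 24 h, with a median level of 21.9 CPM. The 61 between them had medians of 1.62 and 2.40 with 13.1 CPM. A difference of at least 1 at 24 h was kept by 60 of the 68 latest members (88.2%), 44 of the 61 (72.1%) and 40 of the 55 earliest (72.7%). Over all gene models, whatever their 5 h difference, the share was 10.8%. Shares by 5 h class were not counted outside the members, so this order cannot be called particular to them. These classes were cut from the values of 1 library and its control, and no test was made between them. Across the 184 members the Nodal5 differences at 7.5 and 24 h had a Pearson coefficient of 0.46 and a Spearman coefficient of 0.46. Between 5 and 24 h they were -0.05 and -0.16. The hours share no library, but the points share the 7.5 h threshold, and gene models are not replicates.

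**Figure D3:**
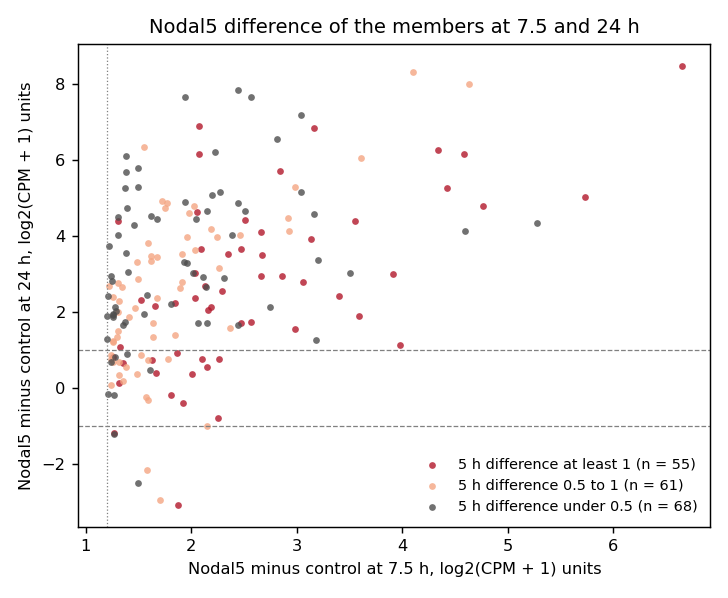
Nodal5 minus control at 7.5 h (horizontal) and at 24 h (vertical) for the 184 members, in log2(CPM + 1) units, coloured by the difference at 5 h. The dotted line marks the threshold of 1.2 at 7.5 h and the dashed lines mark 1 unit above and below the control at 24 h. All 40 members at 2.5 or more at 7.5 h lie above the upper dashed line, and the 7 below the lower one had differences of at most 2.15 at 7.5 h.

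The share of members still higher with Nodal5 at 24 h was given by class of the 7.5 h difference, as a description, since the rule used that value. Of the 60 members between 1.2 and 1.5 at 7.5 h, 40 were at least 1 unit above the control at 24 h (66.7%), as were 64 of the 84 between 1.5 and 2.5 (76.2%) and 40 of the 40 at 2.5 or more. Among gene models outside the members with the same difference at 7.5 h, the shares were 51.7% of 176, 59.3% of 268 and 85.2% of 230. The median difference of the members at 24 h was 1.88, 2.73 and 4.41 in these classes. A gap from background was present at low and at higher starting levels. Among the 122 members under 1 CPM on average at 2.5 and 5 h in the explants without Nodal5, 98 were at least 1 unit above the control at 24 h (80.3%), against 11.5% of all gene models at that level. Among the 62 members of 1 CPM or more, 46 were (74.2%), against 10.4%.

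In members with a Nodal5 difference under 1 unit at 24 h, a higher control level was more frequent than a lower Nodal5 level. The median difference of these members at that hour was 0.39. A small 24 h difference defines these members, so some rise of the control or fall of Nodal5 is built in. At 7.5 h their median level was 0.726 CPM in the control, near the floor, and 4.07 CPM with Nodal5. The counts are thus a description. The control was at least 1 unit higher at 24 h than at 7.5 h for 50 of the 184 members (27.2%), and for 6157 of all 30841 gene models. Of the 40 members that did not keep a difference of 1, this was so for 25, the Nodal5 level was at least 1 unit lower for 7, both held for 2 of these, and neither held for 10. The 33 members within 1 unit of the control had a median level of 5.6 CPM with Nodal5 and 4.28 CPM in the control at 24 h, and their 7.5 h medians were 3.9 and 0.64 CPM. The 7 members that were lower with Nodal5 at 24 h had medians of 6.37 CPM with Nodal5, 13.5 CPM with GATA4-GR, 11.8 CPM with GATA4-GR+Dkk-1 and 31.1 CPM in the control. At 7.5 h the median level of these 7 was 5.63 CPM with Nodal5 and 0.813 CPM in the control. In the 144 members that kept the difference, the 24 h medians were 43.4 CPM with Nodal5, 1.82 CPM with GATA4-GR, 2.33 CPM with GATA4-GR+Dkk-1 and 0.743 CPM in the control.

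Some members were also higher with GATA4 at 24 h. Both GATA4 treatments were at least 1 unit above the control for 40 members, which is 21.7%, against 8.0% of all gene models and 5.58% of those inside the GATA4 windows. The margin was smaller under the edgeR call with the error of the earlier hours, which marked 29 members (15.8%) as higher, against 12.9% of all gene models. Nodal5 was also at least 1 unit above the control for 36 of these 40, which is 19.6% of the members, against 3.61% of all gene models. These 36 were among 144 members higher with Nodal5. Among all gene models, 1113 of the 3322 higher with Nodal5 were also higher with both GATA4 treatments, so the overlap was not particular to the members. The 24 h medians of the 40 were 51.8 CPM with Nodal5, 10.4 CPM with GATA4-GR, 10.2 CPM with GATA4-GR+Dkk-1 and 0.822 CPM in the control. Nodal5 stood at least 1 unit above both GATA4 libraries for 23 of the 40, and a GATA4 library was above Nodal5 for 12. Both GATA4 treatments were at least 1 unit below the control for 10 members, which is 5.43%, against 9.66% of all gene models, and the edgeR call marked 9, against 15.2% of all gene models. For 5 of these 10, Nodal5 was at least 1 unit above the control at the same hour. This opposition was found in 2.72% of the members and 0.172% of all gene models. Of the 2980 gene models lower with both GATA4 treatments, 53 showed it. Since the members were chosen with Nodal5 high at 7.5 h, the nearer comparison is among those higher with Nodal5 at 24 h. There the opposition was found in 5 of 144 members and in 53 of 3322 gene models. The 3 treatments share the control library of the hour, so a deviation of that library moves all of these differences together.

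For the larger part of the members the Nodal5 library stood above the other 3 libraries at 24 h. Nodal5 was at least 1 unit above the highest of the other 3 for 125 members, or 67.9%, against 5.13% of all gene models. Of the 68 gene models at least 1.2 higher with Nodal5 at 2.5 and 7.5 h and inside the GATA4 windows, 45.6% met this limit. Among those at least 1 unit above the control with Nodal5 at 24 h, it was met by 125 of 144 members and 1581 of 3322 gene models. Of the 144 members that kept the difference from the control, 90 had both GATA4 treatments within 1 unit of the control. The median of GATA4-GR+Dkk-1 minus GATA4-GR at 24 h was 0.11, with 7 members at least 1 unit higher (3.8%, against 1.07% of all gene models) and 6 at least 1 unit lower (3.26%, against 1.19%).

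Many members were also higher at 24 h than at the first hours in the explants without Nodal5. The level at 24 h was compared with the mean of 2.5 and 5 h by edgeR's quasi-likelihood test in the 12 libraries of control, GATA4-GR and GATA4-GR+Dkk-1 explants, with treatment in the model and 6 residual degrees of freedom. The error is how far the change with time varied between these 3 treatments. At an adjusted p under 0.1 over all 30841 gene models, 121 of the 184 members were called higher at 24 h, which is 65.8%, against 41.1% of all gene models. The test called 15 members lower at 24 h, which is 8.15%, against 34.0% of all gene models, and it made no call for the other 48. The rule held the GATA4 treatments near the control up to 7.5 h, which bears on this error, so the counts are a description and not independent of the choice of members. Among the 22983 gene models inside the same GATA4 windows, 38.4% were called higher and 37.1% lower. The share of these called lower depended on the early level without Nodal5. It was 9.52% under 1 CPM, where 122 of the 184 members lay, and 50.5% at 1 CPM or more. The gap in lower calls is therefore not a comparison at equal level. In these 12 libraries 49 of the members were too low for the filter filterByExpr, and they had passed the row total with the Nodal5 counts included. The median change of the members was 1.79 log2 units, against 0.19 over all gene models. Of the 122 members under 1 CPM, 81 were called higher (66.4%), against 53.9% of all gene models at that level and 54.2% of those inside the GATA4 windows. Of the 62 members of 1 CPM or more, 40 were (64.5%), against 34.9% of all gene models there and 30.7% of those inside the windows. Without the GATA4-GR+Dkk-1 libraries 101 members were called higher (54.9%, against 35.3% of all gene models), and without the GATA4-GR libraries 108 were (58.7%, against 36.7%).

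The calls pool 3 treatments, and the control alone did not always share their direction. Of the 121 members called higher, the control was at least 1 unit above its own mean of 2.5 and 5 h for 52 and not above it for 17. Of the same 121, 34 were at least 1 unit higher with both GATA4 treatments than in the control at 24 h, of 40 such members in all. A Nodal5 difference of at least 1 at 24 h was found for 89 of the 121 (73.6%). The median levels of the 121 at 24 h were 28.6 CPM with Nodal5, 5.88 CPM with GATA4-GR, 5.83 CPM with GATA4-GR+Dkk-1 and 2.85 CPM in the control. Of the 63 members not called higher, 55 had such a difference (87.3%), and the medians of the 63 were 15.2, 0.387, 0.491 and 0.329 CPM in the same order of treatments. All 7 members that were lower with Nodal5 at 24 h were among the 121.

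**Figure D4:**
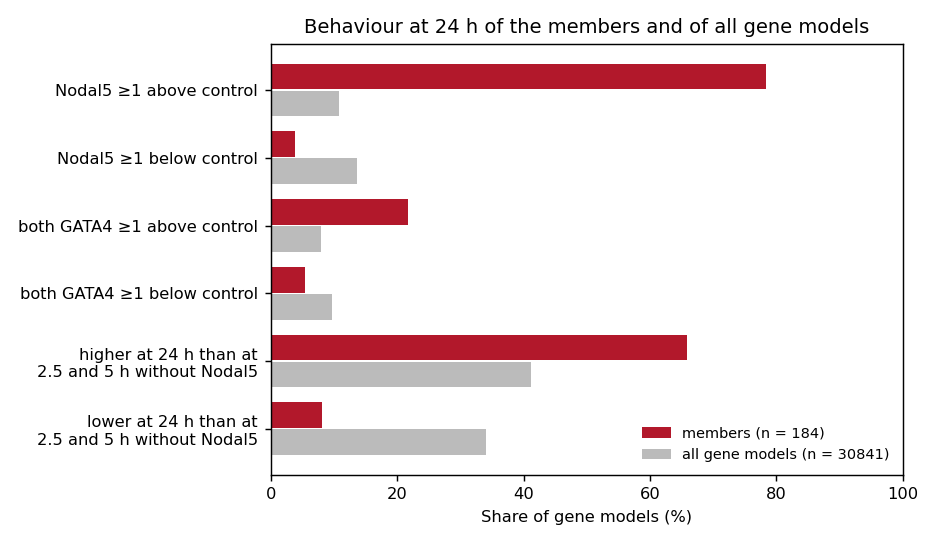
Share of the 184 members (red) and of all 30841 gene models (grey), in percent, that met each description at 24 h. The first 4 pairs count differences of at least 1 log2 unit from the control library, with no test, and the last 2 count calls of edgeR's quasi-likelihood test over the 3 treatments without Nodal5. The largest gap is for Nodal5 above the control, 78.3% of members against 10.8% of all gene models.

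Xelaev16002887m.g had the largest Nodal5 difference of all members at 7.5 h and also at 24 h. With Nodal5 it was at 9.08, 63.5, 574 and 741 CPM in the order of the hours, against 8.65, 7.11, 4.73 and 1.07 CPM in the control. GATA4-GR gave 7.88, 5.15, 4.27 and 3.25 CPM and GATA4-GR+Dkk-1 gave 7.6, 6.83, 5.36 and 3.5 CPM. The level went down with time in each treatment without Nodal5 and up with Nodal5, and the 4 treatments were close together only at 2.5 h. The differences of Nodal5 from the control were 0.06, 2.99, 6.65 and 8.49.

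Xelaev16010437m.g had the next largest Nodal5 difference at 24 h. It was at 0.0578, 0.628, 18.8 and 585 CPM with Nodal5, against 0, 0.0393, 0.152 and 0.84 CPM in the control, where it had 0, 1, 3 and 10.22 counts. No GATA4 library exceeded 0.419 CPM. It was thus near or below detection without Nodal5 at every hour, was still low at 5 h with Nodal5, and rested on 217 counts at 7.5 h and 6685.85 at 24 h with Nodal5. The Nodal5 differences were 0.08, 0.65, 4.10 and 8.31.

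Xelaev16045298m.g had the lowest Nodal5 difference at 24 h. With Nodal5 it was at 1.16, 2.84, 5.63 and 4.9 CPM, against 0.655, 0.589, 0.813 and 49.0 CPM in the control. With GATA4-GR it was at 0.488, 0.572, 0.74 and 8.12 CPM, and with GATA4-GR+Dkk-1 at 0.794, 0.377, 0.678 and 7.72 CPM. The Nodal5 level was similar at 7.5 and 24 h, and the control library stood above the other 3 libraries at 24 h. The Nodal5 difference was 1.87 at 7.5 h and -3.08 at 24 h.

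Xelaev16072913m.g had the second lowest. With Nodal5 it was at 0.578, 0.962, 2.42 and 0.525 CPM, against 0.197, 0, 0.0513 and 10.9 CPM in the control. GATA4-GR gave 0.325, 0.4, 0.229 and 13.5 CPM, and GATA4-GR+Dkk-1 gave 0.113, 0.126, 0.271 and 5.95 CPM. At 24 h it was therefore low in the Nodal5 library alone, where it had 6 counts against 133 in the control. Its difference was 1.70 at 7.5 h, on 28 counts with Nodal5 and 1.01 in the control, and -2.97 at 24 h.

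**Figure D5:**
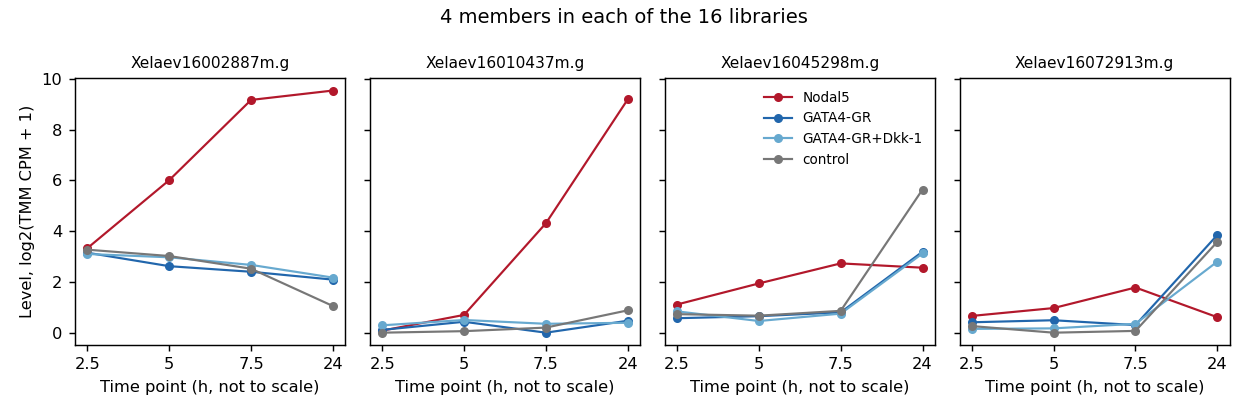
Level of 4 members, as log2(TMM CPM + 1), in each of the 16 libraries by hour, with 1 library per point. The 2 on the left have the largest Nodal5 differences at 24 h, 8.49 and 8.31, and the 2 on the right the lowest, -3.08 and -2.97. At 24 h the control library was the highest for Xelaev16045298m.g, and the Nodal5 library alone was low for Xelaev16072913m.g.

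The members were set beside gene models with other early histories. A group of 68 gene models was at least 1.2 higher with Nodal5 at both 2.5 and 7.5 h with both GATA4 treatments in the same window. The median Nodal5 difference at 24 h was 2.77 for the members and 1.31 for this early group, and a difference of at least 1 was found for 78.3% of the members and 66.2% of the early group. The Nodal5 level was at least 1 unit lower at 24 h than at 7.5 h for 7.07% of the members and 38.2% of the early group. The mirror group of 80 gene models was induced late by both GATA4 treatments with Nodal5 near the control. At 24 h, 66.2% of that group were at least 1 unit higher with both GATA4 treatments, and 23.8% with Nodal5. The test with time without Nodal5 called 73.8% of the mirror group, 65.8% of the members and 47.1% of the early group higher at 24 h. The GATA4 treatments that chose the mirror group are part of that test. These groups were chosen from the same libraries by similar thresholds, and the differences between them were not tested.

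RSEM divides reads that match several gene models, so models that share reads, such as the L and S copies of genes in this allotetraploid genome, are uncertain. Counts that were not whole made up 30.5% of the members' values and 47.9% of those of all gene models tested. At least 1 such count was found in 145 of the 184 members (78.8%), against 82.5% of all gene models tested, and the other 39 had whole counts in all 16 libraries.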

How the data were processed

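Poly(A) RNA of explants was sequenced in 16 libraries. Bowtie and RSEM were run by the authors on read pairs against gene models of JGI (v7.2), and the deposited values are the expected counts of RSEM, without normalization. Tool versions are not given in the sources used here. Members were chosen on CPM from counts as deposited, with a row total of at least 50 and TMM factors from edgeR 4.0.16 in R 4.3.3. For the test with time, counts were rounded to whole numbers and edgeR's quasi-likelihood test was used with Benjamini-Hochberg adjustment and the threshold of 0.1 of the study's methods. It was tested on simulated data. There the changed gene models were few and not among the lowest in counts, so calls for members near the floor were not covered. Differences at one hour have no replicates and are given without a test, except that, as an alternative, edgeR calls at 24 h took their error from the earlier hours. DESeq2 1.42.0, other scalings, pseudocounts, filters and thresholds were also alternatives. In the simulated data, false calls ran higher with DESeq2. The shares among gene models inside the GATA4 windows, and among those with the same 7.5 h difference, were added after seeing the data. Total counts of 11339829 to 23310320 limit counting error only. The members and lists were chosen with earlier results of these data known. Lists of named genes were fixed but could not be used without gene names. The 4 identifiers shown are, by rule, the member highest with Nodal5 at 7.5 h, the next highest at 24 h and the 2 lowest at 24 h.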

Additional observations from a re-analysis of the deposited data

Results flagged for a closer look

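Nodal5 and the control differed in opposite directions at 7.5 and 24 h in 7 members. These were at least 1.2 units higher with Nodal5 at 7.5 h and at least 1 unit lower at 24 h. They made up 3.8% of the members. Whatever their 7.5 h value, 13.6% of all gene models were at least 1 unit lower with Nodal5 at 24 h. The lowest of these 7 members were Xelaev16045298m.g, at -3.08, and Xelaev16072913m.g, at -2.97. They were picked out because the effect of the same treatment had opposite signs at these hours. With 1 library per treatment and hour, the difference between the hours was not tested.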

How the results depend on the processing

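Of 83 recomputed summary values, 72 stayed within the interval or range set for them, as did the 24 for the 4 identifiers. For shares and medians this was a 95% interval that treats the members as independent, which they are not. For counts it was a factor of 1.5, and for the identifiers a range from counting error. The tally thus describes closeness and is no measure of robustness. The recomputed medians of the Nodal5 difference at 24 h and the differences of the 4 identifiers kept their sign. The other summary values are shares and counts, which have no sign, so a reversal could not be seen in them. The median Nodal5 difference at 24 h was 3.14 with a row total of at least 200, 2.17 with a threshold of 1.0 at 7.5 h and 3.32 with one of 1.5. That last threshold gave 39.5% of members higher with Nodal5 at 5 h, against 2.12% of all gene models. With 0.5 log2 units as the limit, 63.0% were higher with Nodal5 at 5 h, 88.0% at 24 h, and 13.6% were lower with both GATA4 treatments at 24 h. With 2 units, 5.43% were higher with Nodal5 at 5 h and 63.0% at 24 h, and 10.9% with both GATA4 treatments at 24 h. Shares over all gene models were not counted at the limits of 0.5 and 2 units, so these values have no background beside them. An edgeR call at 24 h with the error of the earlier hours gave 15.8% higher with both GATA4 treatments (12.9% of all gene models) and 76.1% higher with Nodal5 (18.2%), an error in which the rule had a part. Membership depended on the pseudocount: 106 of the 184 were chosen again with 0.5 CPM and 124 with 2 CPM (the median member was at 0.356 CPM in the control at 7.5 h). The test with time called 101 to 124 members higher when 1 treatment was left out (35.3% to 40.5% of all gene models) and 114 by DESeq2 (41.2%). The filter filterByExpr kept 135 members, of which 102 were called higher (75.6%, against 43.0% of the 28123 gene models kept). No paired analysis was possible because each treatment has 1 library per hour and the labels give no replicate numbers.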
